A study of Homo sapiens with 16 samples.

Results

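Deoxynucleotides, the building blocks of DNA, are made and removed by a small set of enzymes, and 8 genes of this set, RRM1, RRM2, RRM2B, TYMS, DUT, TK1, DCK and SAMHD1, were followed across the libraries of the series. They were chosen by symbol, and all 8 were found among the 34228 genes of the count table, of which 34052 carried a GENCODE symbol. RNA-Seq had been run on 2 human melanoma lines that had become resistant to BRAF inhibition (BRAFi-R) over months of culture in rising PLX4032 (vemurafenib) and were then kept in PLX4032. 451Lu-R is of the MITFhi/AXLlo phenotype and 1205Lu-R of the MITFlo/AXLhi phenotype. Treatment lasted 24 h and consisted of 2.5 μM corin or of DMSO, both without PLX4032. Corin is a bivalent inhibitor of the CoREST complex that blocks both its demethylase LSD1 and its deacetylases HDAC1 and HDAC2. There were 4 groups of 2 libraries, 451Lu-R under DMSO, 451Lu-R under corin, 1205Lu-R under DMSO and 1205Lu-R under corin. Each phenotype is represented by 1 line, so line and phenotype cannot be told apart. Titles of these 8 libraries give the lines as 451Lu and 1205Lu without the R, and their source labels state that the cells are the resistant ones. Whether the resistant lines are clonal and whether the replicates were separate cultures is not given in the sources used here, so the p-values measure the spread between these libraries, which may be technical. The other 8 samples of the series, with PLX4032 or PLX4032 plus corin, were not analysed here.

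Ribonucleotide reductase turns ribonucleotides into deoxyribonucleotides. Its large subunit is RRM1, and its small subunit is either RRM2, which cells make mainly in S phase and degrade in mitosis and G1, or RRM2B (p53R2), which p53 induces and which also serves cells that are not replicating. Thymidylate is made de novo by TYMS from dUMP, which DUT supplies by splitting dUTP. Preformed nucleosides are salvaged by the cytosolic kinases TK1, for thymidine, and DCK, for deoxycytidine, deoxyadenosine and deoxyguanosine. SAMHD1 works the other way and splits dNTPs, which keeps pools low in cells that are not dividing. Many genes of the pathway are transcribed under E2F and NF-Y factors as cells enter S phase.

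Libraries held between 9516687 and 11797788 estimated counts, and the 10 most abundant genes took between 5.95% and 8.78% of a library. Replicates of a group agreed closely, with Pearson's r across genes between 0.994 and 0.995 and a chi-square per degree of freedom of their counts between 1.34 and 1.41, where sampling noise alone gives about 1. Of the 10 melanoma markers, all were testable in 451Lu-R, whereas SOX10 had no count in any 1205Lu-R library and SOX10, MLANA, TYR, DCT and TYRP1 were too low to test there. MITF was at 782 and 804 CPM (counts scaled to the same total in each library) in 451Lu-R under DMSO against 8.04 and 6.31 CPM in 1205Lu-R under DMSO. AXL had the opposite levels, at most 0.222 CPM in 451Lu-R and 948 and 976 CPM in 1205Lu-R, both under DMSO. Of 8 markers of blood, epithelial, endothelial and liver cells in the table, the summed level was between 0.275 and 9.81 CPM per library, with PTPRC, EPCAM, KRT5, CDH5 and ALB among those too low to test. KRT14 was testable in 451Lu-R and PECAM1 in 1205Lu-R, each below 10 CPM.

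To set the members' sequences beside their values, the RefSeq promoter windows (GRCh38.p14, 250 bases before to 50 bases after a transcription start) of 7 of the 8 members were searched on both strands for 4 short motifs. The motifs were the E2F words TTTCCCGC, TTTCGCGC, TTTGCCGC and TTTGGCGC, the CCAAT box bound by NF-Y, the TATA-like word TTTAAA, and TTTGAA, the CHR element of late cell cycle genes. Of 35116 promoter windows of this length, 3.31% held an E2F word, 34.6% a CCAAT box, 12.2% TTTAAA and 15.2% TTTGAA. RRM2B is named only. The 250 bases before the TYMS start, on the + strand of chr18:657403-657652, are shown because TYMS fell in both lines; capitals mark the E2F word, which lies on the opposite strand and starts 39 bases before the transcription start.
TYMS promoter: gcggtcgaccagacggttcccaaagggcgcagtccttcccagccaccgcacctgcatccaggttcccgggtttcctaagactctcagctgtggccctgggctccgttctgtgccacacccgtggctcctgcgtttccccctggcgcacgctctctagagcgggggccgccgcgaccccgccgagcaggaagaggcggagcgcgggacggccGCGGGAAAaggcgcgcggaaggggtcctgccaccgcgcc
DUT, which also fell in both lines, has several starts. Of these, the window of the start at chr15:48332197 held a pair of E2F words, whose first bases were 42 and 27 bases before the start, and 2 TTTGAA; the window of the main start held none of the motifs. The stretch that holds the E2F words but not the TTTGAA, on the + strand of chr15:48332153-48332182, reads as follows, with the words in capitals.
DUT promoter stretch: tgGCGGGAAAtttcggtTTTGGCGCgctcc
RRM2 and TK1, whose responses are set against these below, held no E2F word of this spelling in any window. RRM2 carried 3 CCAAT boxes before its main start (chr2:10122739, + strand), at 123, 93 and 66 bases before it, and each was followed by nearly the same letters. A TTTAAA lay 30 bases before the start. The stretches at chr2:10122612-10122631, chr2:10122642-10122661, chr2:10122669-10122688 and chr2:10122704-10122723 are given in this order, with the motifs in capitals.
RRM2 CCAAT box at 123: gcagCCAATgggaagggtcg
RRM2 CCAAT box at 93: acagCCAATgggaagggccg
RRM2 CCAAT box at 66: aaagCCAATgggaagggccg
RRM2 TTTAAA: ggagaTTTAAAggctgctgg
In TK1, read on the − strand, a CCAAT box on the opposite strand (ATTGG as written) and a TTTAAA lay 46 and 27 bases before the main start within chr17:78187073-78187102. A further CCAAT box lay 77 bases before the start, and a further TTTAAA at the far end of the window, 250 bases before it.
TK1 promoter stretch: cgtgATTGGccagcacgccgtggTTTAAAg
RRM1 and DCK also fell in both lines. The window of RRM1, which belongs to a start at chr11:4094685 and not to its main start, held no E2F word. It held 1 CCAAT box and a TTTGAA, and the window of SAMHD1 held 2 CCAAT boxes. DCK held no motif of the 4 before its start and 1 E2F word beginning 22 bases after it. No 2 matches overlapped. A match describes the letters only and is not evidence of binding, and a link between motifs and responses was not tested.

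After 24 h of corin, the transcripts of 4 members, TYMS, DUT, RRM1 and DCK, fell by more than 2-fold in both lines, SAMHD1 rose by more than 4-fold in both, and TK1 did not pass the test in either. The alternative small subunits of ribonucleotide reductase differed between the lines: RRM2 rose in 1205Lu-R and fell slightly in 451Lu-R, whereas RRM2B rose more in 451Lu-R. Corin changed most genes tested, so these calls are read against that background. At an adjusted p under 0.05 by edgeR's quasi-likelihood test with Benjamini-Hochberg adjustment, 7 of the 8 members were called in 451Lu-R (2 higher, 5 lower), where 79.9% of all genes tested were called (41.3% higher, 38.6% lower). In 1205Lu-R 7 of 8 were also called (3 higher, 4 lower), against a background of 78.3% (40.4% higher, 37.8% lower). A share of calls near the background is not a result about these genes, and their sizes are more informative. At an adjusted p under 0.001 and at least 2-fold, 4 of 8 were lower in each line, beside 11.9% (451Lu-R) and 9.0% (1205Lu-R) of genes. In 1205Lu-R DUT passed this limit only narrowly, at 2.04-fold, and its log2 fold change reached -0.96 over the alternatives of processing. SAMHD1 alone was higher at 2-fold, against 20.6% and 19.4% of genes, and it alone passed at 4-fold, where 12.4% and 11.3% of genes were higher. The study used this fold when it set corin plus PLX4032 against PLX4032 alone, a comparison not made here. The median log2 fold change of the members was -0.66 in 451Lu-R and -0.52 in 1205Lu-R, beside 0.03 over all genes tested in each line. In bulk RNA, fewer cells in S phase and less RNA of a gene per cell cannot be told apart.

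**Figure D1:**
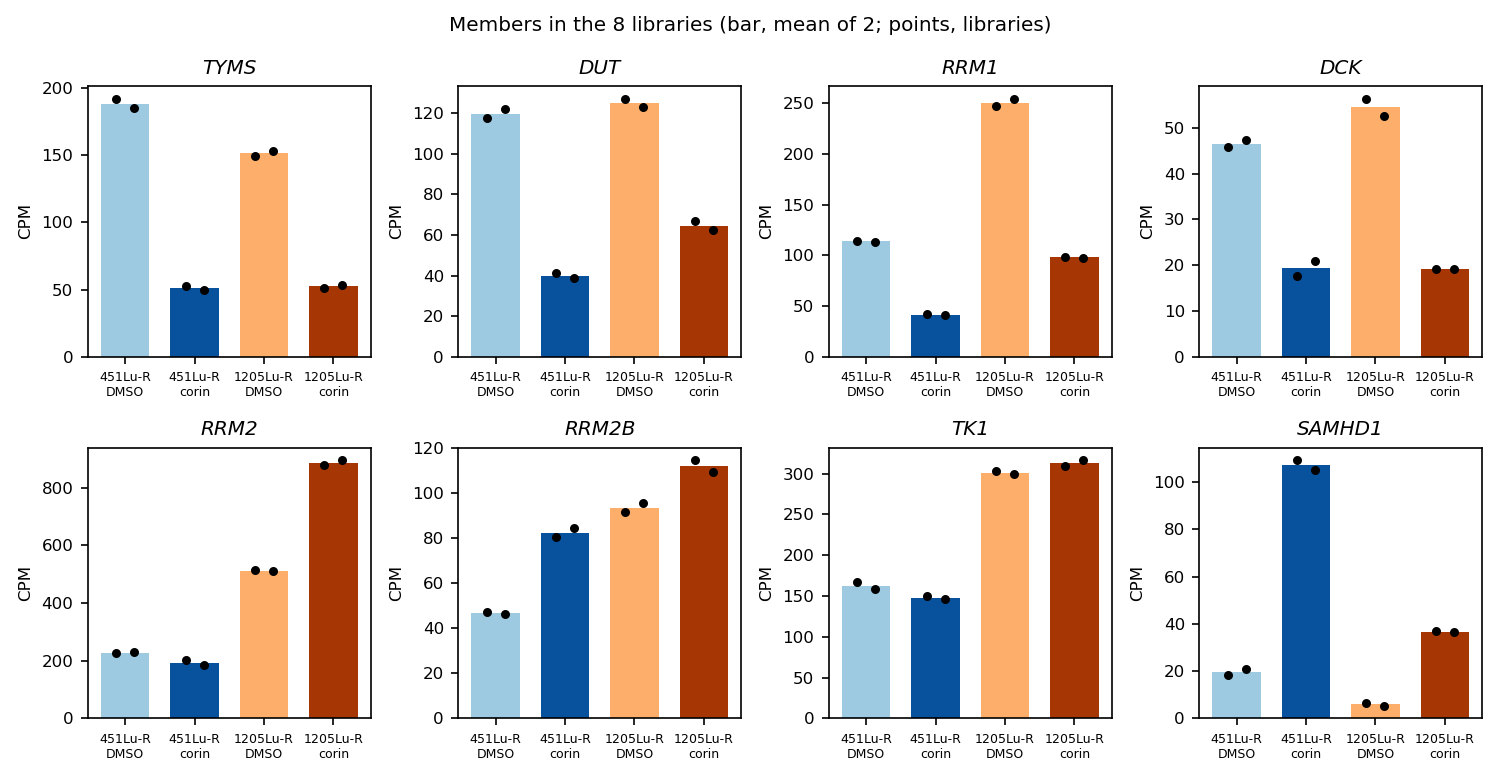
CPM (linear axis from 0) of the 8 members in the 4 groups; bars are means of 2 libraries and points are the libraries. TYMS, DUT, RRM1 and DCK stand lower under corin in both lines and SAMHD1 higher, RRM2 is highest in 1205Lu-R under corin at 887 CPM, and TK1 has means of 163 and 148 CPM in 451Lu-R and of 301 and 313 CPM in 1205Lu-R.

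RRM1, the large subunit that both forms of the reductase need (GRCh38, chr11:4094799-4138932, + strand, 19 exons), had 115 and 113 CPM in 451Lu-R under DMSO and 41.9 and 41.0 CPM under corin. In 1205Lu-R it had 247 and 255 CPM under DMSO and 98.5 and 97.7 CPM under corin. Every corin library lay below every DMSO library of its line, and the 1205Lu-R corin libraries lay below even the 451Lu-R DMSO libraries. The log2 fold change was -1.36 (SE 0.0522, adjusted p = 4.99e-15, edgeR) in 451Lu-R, a 2.57-fold fall. It was -1.43 (SE 0.0372, adjusted p = 4.88e-19, edgeR) in 1205Lu-R, a 2.69-fold fall. The difference between the lines, -0.11 with a 95% interval from -0.24 to 0.03, did not pass the test (adjusted p = 0.190, edgeR interaction term).

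RRM2, the S phase small subunit and the target of hydroxyurea and triapine (chr2:10122739-10131414, + strand, 10 exons), was the member with the most different response. In 451Lu-R it had 226 and 229 CPM under DMSO and 202 and 185 CPM under corin, so the groups did not overlap but lay close. In 1205Lu-R it went from 516 and 510 CPM to 878 and 895 CPM, the highest CPM of any member in any library. The log2 fold change in 451Lu-R was -0.13 (SE 0.0361, adjusted p = 0.00224, edgeR), with a 95% interval from -0.21 to -0.06. That call rests on 1 library: without 451Lu-R corin replicate 2 the value was -0.07 with an adjusted p of 0.119. In 1205Lu-R the rise was 0.72 (SE 0.0250, adjusted p = 8.31e-17, edgeR), or 1.64-fold. The responses differed by 0.81 on the log2 scale (SE 0.0488, adjusted p = 7.57e-12, edgeR interaction term).

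RRM2B, the p53-inducible small subunit (chr8:102204502-102238961, − strand, 9 exons), rose in both lines. Its levels were 47.1 and 46.4 CPM under DMSO and 80.7 and 84.4 CPM under corin in 451Lu-R. In 1205Lu-R they were 91.5 and 95.5 CPM under DMSO and 115 and 110 CPM under corin, so the DMSO level in 1205Lu-R already exceeded the corin level in 451Lu-R. The rise was 0.92 (SE 0.0573, adjusted p = 1.23e-11, edgeR) in 451Lu-R, or 1.89-fold. In 1205Lu-R it was 0.19 (SE 0.0437, adjusted p = 0.000571, edgeR), or 1.14-fold, and with DESeq2 this small rise did not pass (0.16, adjusted p = 0.0539). The difference of the responses, -0.77 (SE 0.0697, adjusted p = 6.03e-09, edgeR interaction term), had the opposite sign to that of RRM2.

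The balance within ribonucleotide reductase was compared per transcript length, as RPKM, the CPM divided by the length of the canonical transcript in kilobases. The ratio of RRM2 to RRM2B was 7.05 and 7.25 in 451Lu-R under DMSO and 3.66 and 3.21 under corin. In 1205Lu-R it was 8.26 and 7.83 under DMSO and 11.2 and 12.0 under corin. The ratio thus started at similar values and moved in opposite directions, with no overlap between the groups of either line. The summed small subunits per large subunit, (RRM2 + RRM2B)/RRM1, were 2.18 and 2.22 in 451Lu-R under DMSO and 5.91 and 5.71 under corin. In 1205Lu-R they were 2.25 and 2.18 under DMSO and 9.37 and 9.57 under corin. Before treatment this ratio was nearly the same in both lines, and it was higher under corin in both. Counting length over the union of a gene's exons, chosen as an alternative after seeing the data, scales these ratios down without turning a direction: RRM2 to RRM2B then had group means of 2.87 and 1.38 in 451Lu-R and of 3.23 and 4.66 in 1205Lu-R. These are ratios of transcripts, not of protein.

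**Figure D2:**
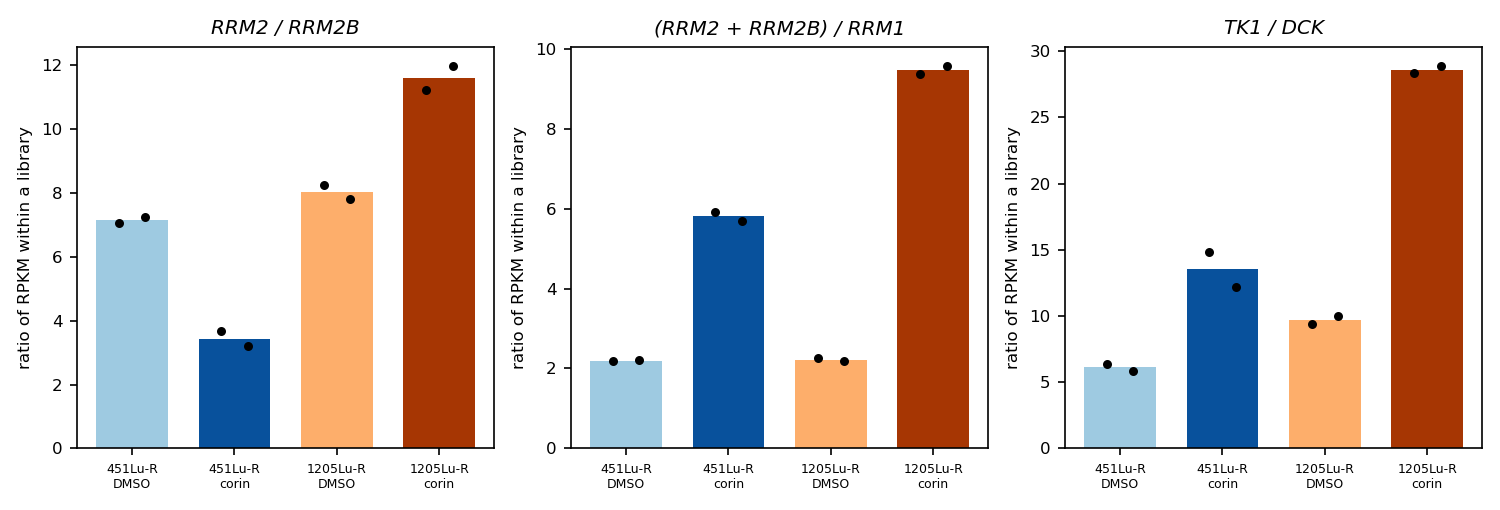
Ratios of RPKM (linear axes from 0) within each library for RRM2/RRM2B, (RRM2 + RRM2B)/RRM1 and TK1/DCK; bars are means of 2 libraries and points are the libraries. RRM2/RRM2B falls under corin in 451Lu-R and rises in 1205Lu-R, while the other ratios are higher under corin in both lines.

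TYMS, which methylates dUMP to thymidylate and is the target of 5-fluorouracil (chr18:657653-673578, + strand, 7 exons), had the lowest log2 fold change of the members in both lines, in 1205Lu-R close to that of DCK. It went from 192 and 185 CPM to 52.9 and 49.4 CPM in 451Lu-R, and from 150 and 153 CPM to 51.1 and 53.8 CPM in 1205Lu-R. Corin libraries of both lines thus lay at nearly the same level. The log2 fold change was -1.78 (SE 0.0457, adjusted p = 8.11e-18, edgeR), a 3.43-fold fall, in 451Lu-R and -1.60 (SE 0.0449, adjusted p = 1.79e-18, edgeR), a 3.03-fold fall, in 1205Lu-R. Of all genes tested, 3.85% and 2.90% had a lower value. The difference between the lines, 0.14 with a 95% interval from -0.01 to 0.29, did not pass (adjusted p = 0.113, edgeR interaction term). ENOSF1 lies on the opposite strand over the end of TYMS, between 5.09 and 29.4 CPM, and TYMSOS over its start, between 0.571 and 1.53 CPM. Under corin in 451Lu-R, ENOSF1 had 17.9 and 20.6 CPM beside 52.9 and 49.4 CPM for TYMS. Whether counting used strand is not given in the sources used here, and how reads were split between these genes was not tested.

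DUT, which splits dUTP so that uracil is kept out of DNA and dUMP is made for TYMS (chr15:48331429-48343373, + strand, 7 exons), fell from 118 and 122 CPM to 41.2 and 38.7 CPM in 451Lu-R. In 1205Lu-R it fell from 127 and 123 CPM to 66.7 and 62.5 CPM. DMSO levels were close in the lines, and the corin levels were not: all 1205Lu-R corin libraries lay above those of 451Lu-R. The log2 fold changes were -1.48 (SE 0.0542, adjusted p = 2.34e-15, edgeR), or 2.79-fold, and -1.03 (SE 0.0460, adjusted p = 6.36e-15, edgeR), or 2.04-fold. The fall was smaller in 1205Lu-R by 0.41 (SE 0.0733, adjusted p = 7.2e-05, edgeR interaction term). The DUT pseudogenes in the table, DUTP6 and DUTP1, held at most 0.0904 CPM.

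TK1, the thymidine kinase of the cytosol, whose protein is used as a marker of proliferation (chr17:78174091-78187052, − strand, 7 exons), had 167 and 158 CPM under DMSO and 150 and 146 CPM under corin in 451Lu-R. The 1205Lu-R libraries had 303 and 300 CPM under DMSO and 310 and 316 CPM under corin. In CPM the groups did not overlap in either line, but the means were close, 163 against 148 CPM and 301 against 313 CPM. With TMM scaling, which also takes into account the composition of the libraries, the log2 fold change was -0.04 in 451Lu-R (95% interval from -0.12 to 0.04, adjusted p = 0.310, edgeR) and -0.02 in 1205Lu-R (from -0.08 to 0.05, adjusted p = 0.603). With scaling by library size only, TK1 fell by 0.14 in 451Lu-R (adjusted p = 0.00217). The difference between the lines was -0.01 (95% interval from -0.12 to 0.09, adjusted p = 0.870), and that scaling turned it to 0.20 (adjusted p = 0.00216).

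DCK, the kinase that also activates cytarabine and gemcitabine (chr4:70993649-71030914, + strand, 7 exons), was at 45.9 and 47.2 CPM under DMSO and 17.6 and 21.0 CPM under corin in 451Lu-R. The 1205Lu-R libraries stood at 56.3 and 52.6 CPM under DMSO and 19.1 and 19.2 CPM under corin. The 4 corin libraries therefore shared a narrow range. Log2 fold changes were -1.18 (SE 0.0855, adjusted p = 1.35e-10, edgeR), or 2.26-fold, and -1.58 (SE 0.0770, adjusted p = 3.00e-14, edgeR), or 2.99-fold. The fall was larger in 1205Lu-R by -0.44 (SE 0.120, adjusted p = 0.00396, edgeR interaction term), a call that was lost without 451Lu-R corin replicate 2 (-0.31, adjusted p = 0.0718) and with scaling by library size only (-0.23, adjusted p = 0.113). MOB1B, a gene on the same strand whose exons overlap those of DCK, was between 34.2 and 144 CPM and moved differently, with a log2 fold change of 1.04 in 451Lu-R and 0.11 (adjusted p = 0.196) in 1205Lu-R. How the authors' counting split reads between these genes was not tested.

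The kinases therefore parted: per length, TK1 exceeded DCK by ratios of 6.39 and 5.86 in 451Lu-R under DMSO and of 14.9 and 12.2 under corin. In 1205Lu-R the ratios were 9.42 and 9.98 under DMSO and 28.4 and 28.9 under corin. The corin ratio was above the DMSO ratio in every library of its line.

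SAMHD1, the dNTP hydrolase, which also limits retroviruses in myeloid cells and removes the active form of cytarabine (chr20:36890229-36951708, − strand, 16 exons), was the member that rose most. In 451Lu-R it went from 18.5 and 20.8 CPM under DMSO to 109 and 105 CPM under corin. In 1205Lu-R it went from 6.62 and 5.37 CPM to 37.0 and 36.5 CPM, so that the corin libraries exceeded every DMSO library of either line. The log2 fold change was 2.56 (SE 0.0684, adjusted p = 1.57e-17, edgeR), or 5.88-fold, in 451Lu-R and 2.54 (SE 0.115, adjusted p = 8.02e-15, edgeR), or 5.81-fold, in 1205Lu-R. Of the genes tested, 90.0% and 91.1% had a lower log2 fold change, so rises of this size were not rare. The responses differed by -0.05, with a 95% interval from -0.37 to 0.26 (adjusted p = 0.824, edgeR interaction term). SAMHD1 rests on the fewest reads of the members, 73.3 and 57.0 estimated counts in 1205Lu-R under DMSO. TLDC2, on the opposite strand, was at or near 0 in every library.

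**Figure D3:**
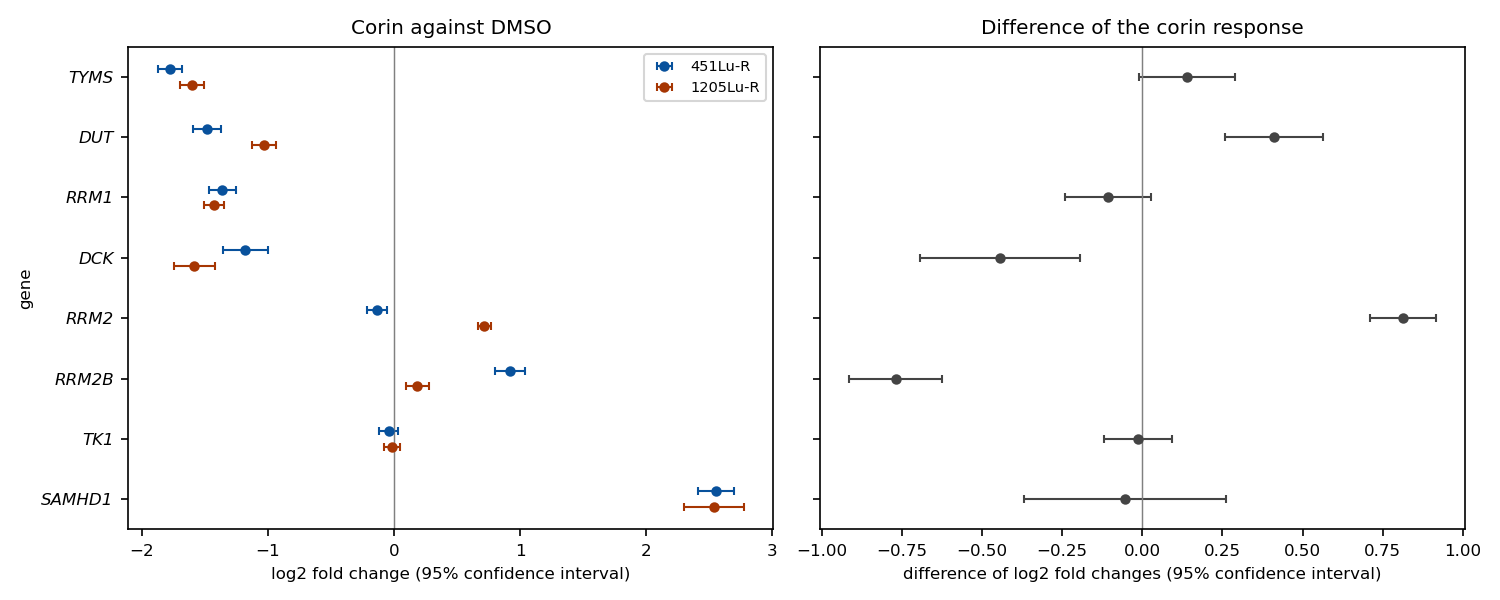
Left, log2 fold change of corin against DMSO for each member in 451Lu-R (blue) and 1205Lu-R (brown); right, the corin response in 1205Lu-R minus that in 451Lu-R; points are edgeR estimates and bars 95% confidence intervals. RRM2 (0.81) and RRM2B (-0.77) lie farthest from 0 on the right, on opposite sides, and the intervals of TYMS, RRM1, TK1 and SAMHD1 cross 0.

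Thus 4 of the 8 members, RRM2, RRM2B, DUT and DCK, differed between the lines in their response to corin, where 49.7% of all genes tested were called (22.6% higher and 27.1% lower in 1205Lu-R). Of these, RRM2 and DUT had the higher value in 1205Lu-R and RRM2B and DCK the lower. With scaling by library size only, the split was 4 higher (RRM2, TYMS, DUT, TK1) and 1 lower (RRM2B). That scaling moved the median of all genes by 0.21 in this comparison. Summed over the members, the libraries held 929 and 922 CPM in 451Lu-R under DMSO and 695 and 670 CPM under corin. In 1205Lu-R the sum was 1497 and 1494 CPM under DMSO and 1575 and 1590 CPM under corin. There RRM2 (means of 513 to 887 CPM) and, by less, SAMHD1, RRM2B and TK1 were higher in mean CPM under corin, and TYMS, DUT, RRM1 and DCK lower. TYMS, DUT, RRM1 and DCK together went from 470 and 467 CPM to 154 and 150 CPM in 451Lu-R, and from 580 and 584 CPM to 235 and 233 CPM in 1205Lu-R.

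To see what the lines carried before corin, the DMSO libraries were compared with each other; these are the same libraries that serve as controls above. All 8 members differed at an adjusted p under 0.05 (6 higher and 2 lower in 1205Lu-R), where 82.5% of genes tested did (41.0% higher and 41.5% lower). The reductase genes and TK1 were higher in 1205Lu-R by about the same amount, RRM2 by 1.28 (SE 0.0275, adjusted p = 3.32e-23), RRM1 by 1.24 (SE 0.0364, adjusted p = 2.24e-20), RRM2B by 1.11 (SE 0.0550, adjusted p = 1.57e-15) and TK1 by 0.99 (SE 0.0335, adjusted p = 4.63e-19) on the log2 scale (edgeR). The differences of DCK (0.34), DUT (0.17) and TYMS (-0.21) were small, and that of DUT was lost with scaling by library size only (0.07, adjusted p = 0.155). SAMHD1 was lower in 1205Lu-R, with a log2 difference of -1.60 (SE 0.145, adjusted p = 2.58e-10). In the same libraries, 28 of 38 S phase marker genes were higher in 1205Lu-R and 7 lower.

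Levels of different members can be set side by side only per length. In 451Lu-R under DMSO the order by mean RPKM over the canonical transcript ran from TYMS (117) and TK1 (114), whose libraries overlapped, through RRM2 (69.9), DUT (56.0), RRM1 (36.3), DCK (18.6) and RRM2B (9.78) to SAMHD1 (4.22). With corin it ran from TK1 (103) and RRM2 (59.3) through TYMS (31.7), SAMHD1 (23.1), DUT (18.7), RRM2B (17.3) and RRM1 (13.2) to DCK (7.70), with no overlap between neighbours. SAMHD1 thus moved, by this length, from the last place to the middle of the order, above RRM1. Over the union of exons the 2 were close under corin, 9.90 for SAMHD1 and 9.79 for RRM1. In 1205Lu-R under DMSO, TK1 (211) led RRM2 (157), TYMS (93.9), RRM1 (79.9), DUT (58.5), DCK (21.7), RRM2B (19.6) and SAMHD1 (1.29). With corin, RRM2 (272) led TK1 (219), followed by TYMS (32.5), RRM1 (31.2), DUT (30.2), RRM2B (23.5), SAMHD1 (7.90) and DCK (7.64), and RRM1 and DUT overlapped. Over the union of exons the order differed in places. In 451Lu-R, RRM2 was at rank 5 in place of 3 under DMSO and SAMHD1 at rank 6 in place of 4 under corin. In 1205Lu-R, RRM2 was at rank 4 in place of 2 under DMSO. Under corin there, TK1 (170) led RRM2 (96.9) and SAMHD1 was last. Ranks, the first place included, thus depend on the length used.

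The supply of the folate and nucleotide precursors was examined next, in lists of genes of these pathways; values of single genes are log2 fold changes of corin against DMSO. In the folate cycle, which gives TYMS its methyl donor, 7 of 11 genes fell and none rose at the adjusted p under 0.05 in 451Lu-R (median log2 fold change -0.23), and 6 fell and 5 rose in 1205Lu-R (median -0.18), beside a median of 0.03 over all genes. SHMT2, the mitochondrial serine hydroxymethyltransferase, fell most in 451Lu-R, by 1.53, and MTHFD1L, a mitochondrial formate-producing enzyme, fell most in 1205Lu-R, by 1.49.

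De novo pyrimidine synthesis fell in 4 of 5 genes in 451Lu-R (median -1.14) and in 3 of 5 in 1205Lu-R (median -0.48), with no gene higher. CTPS2, a CTP synthase, had the lowest value in 451Lu-R at -1.50 (-0.28 in 1205Lu-R, adjusted p = 0.121, edgeR), and CAD, which carries the first steps, the lowest in 1205Lu-R at -0.64. In purine synthesis 10 of 13 genes fell and 2 rose in 451Lu-R (median -0.37), and 7 of 12 fell and 4 rose in 1205Lu-R (median -0.39). PFAS, an amidotransferase of the pathway, had the lowest value in both lines, -2.53 and -1.57. PPAT, which catalyses the first committed step, rose by 0.50 in 451Lu-R. IMPDH2, an enzyme of the guanine branch, rose by 1.07 in 1205Lu-R (means of 118 to 261 CPM) and fell by 0.13 in 451Lu-R. IMPDH1, the other IMPDH gene of the list, went the other way in 1205Lu-R, where it fell by 1.07 (267 to 134.5 CPM). In 451Lu-R IMPDH1 fell by 0.34.

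Among nucleotide kinases 9 of 12 genes fell and 2 rose in 451Lu-R (median -0.49), and 7 fell and 3 rose in 1205Lu-R (median -0.30). DTYMK, which phosphorylates the thymidylate made by TYMS and TK1, had the lowest value in both. It fell from 115 and 111 CPM to 36.8 and 36.5 CPM in 451Lu-R (-1.52, adjusted p = 1.82e-15, edgeR). In 1205Lu-R it fell from 191 and 186 CPM to 96.6 and 92.1 CPM (-1.07, adjusted p = 1.88e-16, edgeR). AK4, a mitochondrial adenylate kinase, rose by 0.86 and 1.05.

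In the salvage list, which holds TK2 and DGUOK, the mitochondrial counterparts of TK1 and DCK, 7 of 11 genes fell and 3 rose in 451Lu-R (median -0.53), and 8 fell and 3 rose in 1205Lu-R (median -0.31). TK2 fell by 1.49 and 0.91 and DGUOK by 0.54 and 0.15, with DGUOK libraries of 1205Lu-R overlapping between DMSO and corin in CPM. DCTD, which deaminates dCMP to the dUMP used by TYMS, fell from 79.9 and 80.8 CPM to 34.9 and 32.4 CPM in 451Lu-R (-1.15, adjusted p = 1.81e-12, edgeR), and by 0.94 in 1205Lu-R. UCK1, a uridine-cytidine kinase, had the lowest value in 451Lu-R at -1.59, and ADK, the adenosine kinase, the highest value in both lines among genes of at least 5 CPM, 1.06 and 0.80.

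Of the enzymes that break down nucleotides or clean the pool, 7 of 15 fell and 4 rose in 451Lu-R (median -0.20), and 6 fell and 4 rose in 1205Lu-R (median -0.09). For this and the other lists, the background over all genes tested was 38.6% lower with 41.3% higher for 451Lu-R and 37.8% lower with 40.4% higher for 1205Lu-R. SAMHD1 is not in this list. ITPA, which removes inosine triphosphate, had the lowest value in both lines, -1.33 and -1.67, and PNP, the purine nucleoside phosphorylase, the highest among genes of at least 5 CPM, 2.07 and 1.45. DCTPP1, which splits dCTP and its analogs, fell by 0.58 and 0.89, and the nucleotidase NT5C by 0.73 and 0.46. NT5E (CD73), an ectoenzyme that makes adenosine, rose by 1.44 in 451Lu-R from 16.8 and 14.8 CPM, and fell by 0.62 in 1205Lu-R from 422 and 418 CPM. CDA, the cytidine deaminase, held at most 9 counts in a library and was not tested.

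**Figure D4:**
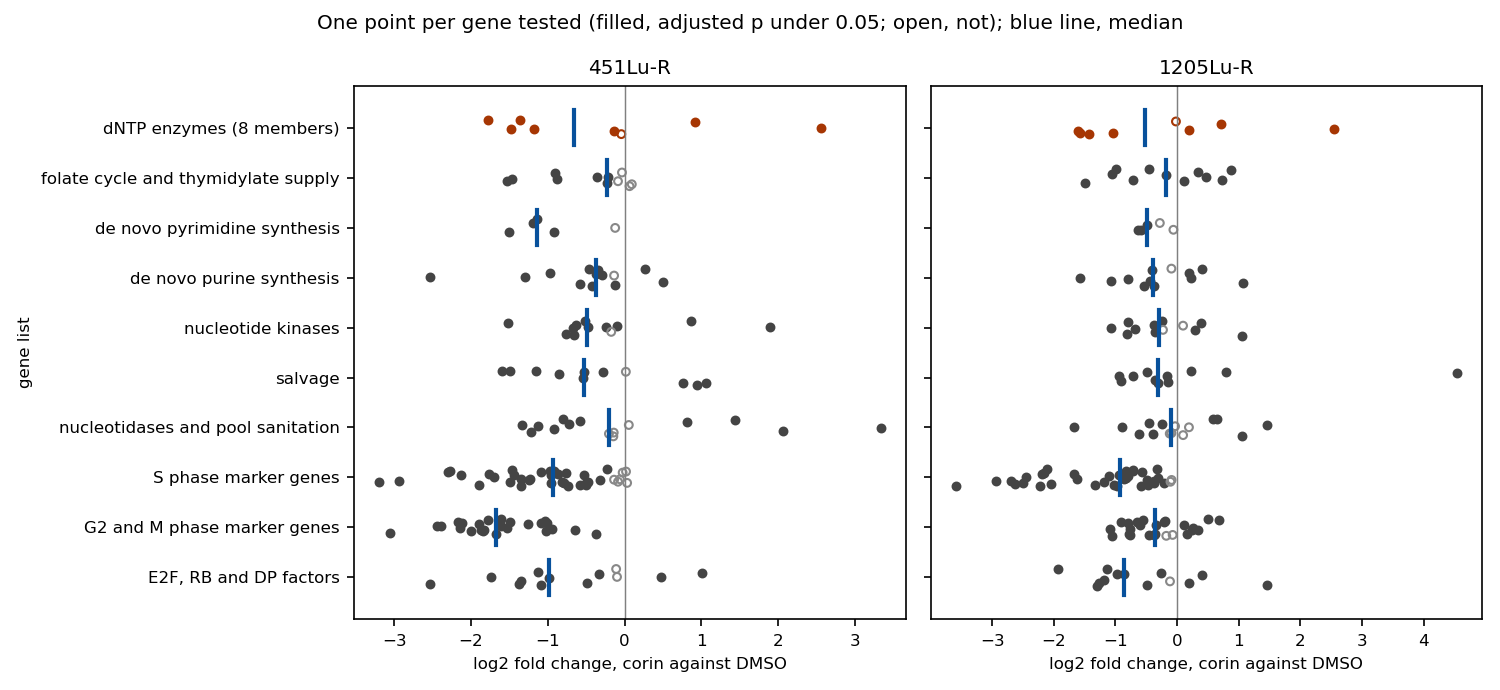
Log2 fold change of corin against DMSO, left in 451Lu-R and right in 1205Lu-R; each point is a gene tested, filled where the adjusted p was under 0.05, in rows by gene list with the 8 members in brown on top, and the blue line is the median of the list. The S phase medians are -0.93 in both lines, while the G2 and M phase medians are -1.68 in 451Lu-R and -0.36 in 1205Lu-R.

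Since several members are transcribed with S phase, markers of cell cycle phases were read beside them. None of the members is in these lists. Of 38 S phase marker genes, 32 fell and none rose in 451Lu-R, and 36 fell and none rose in 1205Lu-R, with a median log2 fold change of -0.93 in both. Their summed level went from 2419 and 2453 CPM to 1247 CPM in both corin libraries of 451Lu-R, and from 3203 and 3187 CPM to 1567 and 1556 CPM in 1205Lu-R. The lowest values were those of CDCA7 (-3.19), the partner of the remodeller HELLS, in 451Lu-R and of UNG (-3.59), the glycosylase that removes uracil from DNA, in 1205Lu-R. Hence TYMS, DUT, RRM1 and DCK fell together with S phase markers in both lines. TK1 did not pass the test in either line (-0.04 in 451Lu-R and -0.02 in 1205Lu-R). RRM2 fell only slightly in 451Lu-R (-0.13) and rose in 1205Lu-R (0.72). The part of the S phase signal in the members' fall was not tested.

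Of 25 G2 and M phase marker genes, all fell in 451Lu-R (median -1.68), and in 1205Lu-R 16 fell and 7 rose (median -0.36). Their summed level went from 2814 and 2873 CPM to 894 and 898 CPM in 451Lu-R and from 3747 and 3787 CPM to 3120 and 3154 CPM in 1205Lu-R. All 25 had a higher response in 1205Lu-R by the interaction term, where 22.6% of genes tested were called higher. RRM2 (0.81) and DUT (0.41) shared this direction of difference, and RRM2B (-0.77) and DCK (-0.44) had the opposite one. Of the 38 S phase marker genes, 6 were called higher and 15 lower in 1205Lu-R by the same term (median -0.21), where 27.1% of genes tested were called lower. Within the lines, RRM2 was at -0.13 beside the G2 and M phase median of -1.68 in 451Lu-R, and at 0.72 beside -0.36 in 1205Lu-R. HMMR, a spindle protein, fell by 3.05 in 451Lu-R and rose by 0.12 in 1205Lu-R (adjusted p = 0.0155, edgeR). CDK1, the mitotic kinase, fell by 0.37 in 451Lu-R and rose by 0.68 in 1205Lu-R.

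The E2F, RB and DP factors fell in 9 of 13 genes and rose in 2 in 451Lu-R (median -0.98), and fell in 9 and rose in 3 in 1205Lu-R (median -0.87). E2F1, an activator of S phase genes, fell from 44.1 and 41.4 CPM to at most 20.6 CPM in 451Lu-R (-0.98, adjusted p = 7.96e-10, edgeR). In 1205Lu-R it fell from 75.8 and 83.1 CPM to 33.0 and 34.9 CPM (-1.30, adjusted p = 3.89e-14, edgeR). E2F3 had the lowest value in 451Lu-R at -2.54 and E2F2 in 1205Lu-R at -1.93. The retinoblastoma gene RB1 rose by 1.02 in 451Lu-R and fell by 0.26 in 1205Lu-R. E2F5, a repressive member, rose by 1.46 in 1205Lu-R and had a value of -0.10 (adjusted p = 0.533, edgeR) in 451Lu-R.

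RRM2B is a p53 target and SAMHD1 is induced by interferon in some cells, so the lists of these responses were also read. Of the p53 targets, 8 of 19 rose and 6 fell in 451Lu-R (median 0.11), and 6 of 20 rose and 9 fell in 1205Lu-R (median -0.02), close to the median of all genes. CDKN1A (p21), the inhibitor of cyclin-dependent kinases, rose most in both lines. It went from 28 and 29 estimated counts to 3361 and 2831 in 451Lu-R (6.77, adjusted p = 1.92e-23, edgeR) and from 103 and 105 CPM to 489 and 499 CPM in 1205Lu-R (2.18, adjusted p = 1.10e-22, edgeR). TP53I3, another target, had values of -0.18 (adjusted p = 0.149) and 0.12 (adjusted p = 0.387). AEN, an exonuclease, had the lowest value in 451Lu-R at -1.37 and PHLDA3, an inhibitor of AKT, in 1205Lu-R at -1.49. Of the interferon-stimulated genes, 13 of 19 rose and 5 fell in 451Lu-R (median 1.10), and 12 of 23 rose and 8 fell in 1205Lu-R (median 0.29). The list held 25 genes, and the others were too low to test. Some genes tested were near 0 in a group. In 451Lu-R, OASL had means of 0 CPM under DMSO and 2.14 CPM under corin, and IFIT2, which fell, 1.42 and 0.631 CPM. The count and median in 451Lu-R rest in part on such genes. IRF7, a transcription factor of this response, rose by 2.67 and 2.04, while IFIT3 fell by 0.97 in 451Lu-R and TRIM22 by 2.93 in 1205Lu-R.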

How the data were processed

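RNA-Seq libraries (polyA, paired-end, NextSeq) were trimmed by the authors with trimmomatic, quantified with salmon against GENCODE v32 and summed to genes; tool versions are not given in the sources used here. The deposited expected counts, as estimated by salmon and not normalized, of 8 libraries were rounded to whole numbers. The tables for PLX4032 hold the authors' own log2 fold changes and adjusted p-values and were not used. Gene IDs were matched to GENCODE 44 for symbols, positions and lengths. Corin was compared with DMSO per line, and the lines with each other under DMSO, with edgeR 4.0.16 (filterByExpr, TMM, glmQLFit and glmQLFTest, 2-sided, Benjamini-Hochberg over all genes tested) in R 4.3.3. The difference of the responses was an interaction term over all 8 libraries. Lists were described by counts and medians, with no set test. CPM divides by the library total and RPKM also by transcript length. Simulated counts with known changes were used to test the fits.

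Alternatives were leaving out each library, one fit of all libraries, a block for the replicate number, no filter on low counts, a filter at a mean of 1 CPM, scaling by library size only, RLE size factors and DESeq2 1.42.0. Genes named are the 8 members, genes overlapping them, a few pathway partners, and of each list the highest and lowest called gene per line with at least 5 CPM. The members and lists were chosen with earlier results of these data known. Some genes named by this rule are not reported here.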

Additional observations from a re-analysis of the deposited data

Results flagged for a closer look

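In 4 members the response to corin differed between the lines by the interaction term, a share near that of all genes tested (49.7%). RRM2 (0.81, SE 0.0488, adjusted p = 7.57e-12, edgeR) rose in 1205Lu-R and fell slightly in 451Lu-R, with each corin library of 1205Lu-R above and each of 451Lu-R below the DMSO libraries of its line. Its call in 451Lu-R rests on 1 library, and the value there was -0.07 without 451Lu-R corin replicate 2. RRM2B (-0.77, SE 0.0697, adjusted p = 6.03e-09) rose in both lines, and more in 451Lu-R. DUT (0.41, SE 0.0733, adjusted p = 7.2e-05) fell in both, and less in 1205Lu-R. DCK (-0.44, SE 0.12, adjusted p = 0.00396) fell in both, and more in 1205Lu-R, a call lost without 451Lu-R corin replicate 2 (adjusted p = 0.0718) and with scaling by library size only (adjusted p = 0.113). Each value is the log2 fold change in 1205Lu-R minus that in 451Lu-R, with 2 libraries per group.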

How the results depend on the processing

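Over the alternatives to the scaling, filter, tool and fit, 210 of 216 member log2 fold changes kept their direction and their side of the threshold, as did 157 of 160 when 1 library was left out. Scaling by library size only moved the median of all genes by -0.10 and 0.07 in the corin comparisons of 451Lu-R and 1205Lu-R, by 0.21 in the difference between the lines and by -0.11 between the DMSO groups. With it, 4 members were called higher and 1 lower in the difference between the lines (2 and 2 with TMM), all genes split into 5344 higher and 3003 lower (3625 and 4359 with TMM), the difference of TK1 turned from -0.01 to 0.20, and that of TYMS passed at 0.35 (adjusted p = 0.000253). Leaving out 1 library at a time gave 1 to 2 members called lower in that difference, and TYMS passed at 0.22 (adjusted p = 0.0402) without 451Lu-R corin replicate 1. With DESeq2 and with no filter, which test more genes of low count, the median of all genes in 451Lu-R was 0.22 and 0.20, and it was 0.29 and 0.27 in 1205Lu-R. List counts that moved by over 1.5 times were nucleotide kinases higher in 451Lu-R (1 in place of 2, DESeq2 or a mean of at least 1 CPM), interferon-stimulated genes lower in 451Lu-R (3 in place of 5, DESeq2 or without 451Lu-R DMSO replicate 2 or corin replicate 1), folate cycle genes higher in 1205Lu-R (3 in place of 5, DESeq2), and markers of other cell types (KRT14 alone, or 2 genes with no filter, higher in 451Lu-R; PECAM1 lower in 1205Lu-R, none with DESeq2 or without DMSO or corin replicate 2).

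Deviations of same-numbered libraries correlated only weakly and with both signs, so the main fits did not pair libraries by replicate number. The correlation was 0.0344 between DMSO and corin in 451Lu-R and -0.0795 in 1205Lu-R. It was 0.156 between the DMSO groups, and from -0.15 to 0.0765 over the other pairs of groups. Under a block for the replicate number, RRM2 was at -0.13 (adjusted p = 0.00133) and 0.72, members were called 2 higher and 5 lower in 451Lu-R and 3 higher and 4 lower in 1205Lu-R, and no call of a member changed.

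With 2 libraries per group and 1 line per phenotype, the errors cover these libraries only. When a library is left out, the other one of its group is assumed to vary like the others. SAMHD1 in 1205Lu-R with DMSO has the lowest depth of the members. Transcript levels give no measure of enzyme activity or dNTP pools.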

Other observations

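Over the 8 libraries, the genes whose log2 CPM followed a member most closely, among 11489 genes of at least 5 CPM on average, were EMG1 and TMX2 for RRM1 (Pearson's r of 0.999 each), MYEF2 and CETN3 for RRM2 (0.999 and 0.998), and STC1 and SOX2 for RRM2B (0.998 each). For TYMS they were PUM2 and PHF5A (0.999 and 0.997), for DUT PA2G4 and RFC3 (0.999 and 0.998), for TK1 UBAP2 and ARF4 (0.998 each), for DCK MTA2 and NUP188 (0.997 each), and for SAMHD1 RP2 and SLC25A42 (0.999 and 0.998). Each member had between 293 and 693 genes with r over 0.95. The 8 libraries fall into 4 groups of 2, so these values describe a pattern over 4 group levels.

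The melanoma markers moved beside the members: SOX10, a lineage factor, fell by 1.60 in 451Lu-R and AXL, a receptor tyrosine kinase, fell by 1.09 in 1205Lu-R, while NGFR, a neural crest receptor, rose by 8.44 and 5.03. MITF fell by 1.37 in 451Lu-R and rose by 1.05 in 1205Lu-R. In all, 7 of 10 markers fell and 3 rose in 451Lu-R, and 1 of 5 fell and 4 rose in 1205Lu-R. Some of these markers were low. AXL rose in 451Lu-R from a mean of 0.111 to 2.40 CPM, and PMEL in 1205Lu-R from 0.469 to 1.38 CPM. TYRP1 fell in 451Lu-R from 4.92 to 3.13 CPM.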
